A study of Saccharomyces cerevisiae with 2 samples.

Results

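Tandem ORF pairs are neighbouring open reading frames (ORFs) on the same strand, in which the 3' end of the upstream gene faces the start of the next one. The pairs described here had an annotated distance below 200 nt from the upstream ORF to the next ORF and at least 100 reads after the upstream ORF in each replicate. The rule gave 226 pairs of the 4939 ORFs that met the same read minimum, out of 5798 annotated ORFs, and 316 pairs met it before the read minimum. The minimum was applied to reads recovered from the deposited values, and the same rule on the deposited values gave 220 pairs. A window of 400 nt after the stop codon of the upstream ORF was read for each pair, and the neighbour's start lay inside it in the 174 pairs that did not overlap. Reads were counted before the neighbour's first base and at or past it.

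The samples came from Saccharomyces cerevisiae strain JZY65, genotype {delta}rpb4, in which the coding sequence of RPB4 is deleted. RPB4 encodes a subunit of RNA polymerase II that forms a stalk with Rpb7. The cultures grew in YPD, a rich medium, at 30 °C to mid-log phase, and total RNA was profiled by 3' READS, which sequences the junction of transcript and poly(A) tail so that every read gives a tail's position. The 2 biological replicates form 1 group that shares the deletion, with no other strain in it, so no value below measures an effect of the deletion, and genes are not replicates.

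In yeast, RNA polymerase II transcribes past the poly(A) site, the nascent RNA is cut and given a tail by the cleavage and polyadenylation machinery, and the polymerase is then released. Where a downstream gene on the same strand begins close by, the poly(A) site of the upstream gene and the promoter of the next one share the same short stretch of DNA. A 3' end inside the neighbour's coding sequence belongs to a transcript of the upstream gene that runs into the neighbour, or to a shortened transcript of the neighbour itself, and a read that marks only the 3' end cannot tell these apart. A transcript that runs through the whole neighbour and ends at the neighbour's own 3' end is likewise not separated from the neighbour's mRNA.

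The windows of the 226 pairs held 1065901 reads in replicate 1 and 985499 in replicate 2, which was 3.90% and 3.96% of the reads of all ORFs used. The median pair had 1251.5 and 1248.5 reads, and the range was 104 to 175506 in replicate 1 and 104 to 121943 in replicate 2. No read lay inside the RPB4 coding sequence in either library, against 4486 and 4066 reads in the window after it, so a share of up to 0.0669% and 0.0738% remains possible. Intervals and such limits cover counting error only, since the reads carry no molecular identifiers.

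The 226 pairs were of unlike kinds. The neighbour was a Verified ORF in 93 pairs, an Uncharacterized ORF in 30 and an ORF classed Dubious in 103, that is, one annotated as unlikely to encode a protein. In 52 pairs the annotated ORFs overlapped, 47 of them with a Dubious neighbour, so every window read lay past the neighbour's start by construction. The other 174 pairs were at least 1 nt apart, and 118 of these had a Verified or Uncharacterized neighbour. These 118 pairs, called separate pairs below, were set apart after the tables were opened, and most of what follows is about them. Their ORFs were mostly 150 to 200 nt apart (87 pairs), with 19 pairs at 100 to 150 nt, 8 at 50 to 100 nt and 4 below 50 nt, where a class, here and below, holds its lower bound and not its upper one. PSP1, a separate pair 1 nt before its neighbour, also had every window read past the start by construction, and counts and medians below include it.

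In most separate pairs the bulk of the 3' ends in the upstream gene's window lay before the neighbour's start, and in a minority it lay at or past that start. The median separate pair had 2.19% of its window reads at or past the neighbour's start in replicate 1 and 1.72% in replicate 2 (SD 0.333 percentage points, n = 2), and the middle 50% of pairs ran from 0.201% to 16.4%. The most used poly(A) position lay before the start in both replicates in 102 of the 118 pairs and past it in both in 16 (13.6%). Past-start leading positions occurred in 3.06% of all 1013 used ORFs with a tandem neighbour that was not Dubious 1 to 400 nt away. These 1013 ORFs include the 118, and the 895 of them with a neighbour 200 to 400 nt away gave 1.68%. More than 10% of the reads lay past the start in both replicates in 35 separate pairs (29.7%). The same 1013 ORFs gave 7.90% and the 895 gave 5.03%. At the extremes, 12 pairs had more than 90% past the start in both replicates, 42 had less than 1% in both and 19 had no read past it in either. Over all 226 pairs the median share was 32.9% and 28.9%, 133 pairs had more than 10% in both replicates against a background of 16.2% of 1143 used ORFs with any tandem ORF neighbour under 400 nt, and 106 had their leading position past the start against 10.9%, figures that the overlapping and Dubious pairs dominate. The 1143 ORFs include the 226 pairs, and the other 917, at 200 to 400 nt, gave 5.67% and 2.07%.

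The median share past the start was lower in the classes of larger distance. Among separate pairs the median share was 100% below 50 nt, 83.9% at 50 to 100 nt, 15.2% at 100 to 150 nt and 0.871% at 150 to 200 nt. Pairs with more than 10% past the start in both replicates numbered 4 of 4, 7 of 8, 11 of 19 and 13 of 87 in these classes. Tandem pairs 200 to 300 nt apart with a neighbour that was not Dubious had a median of 0.0519% over 459 pairs. This is the median of means over both replicates, and within each replicate the median was 0%. Across the 118 pairs, Spearman's rho between distance and share was -0.48, and between the shares of the replicates it was 0.89, as descriptions over pairs that share the same libraries. Within classes, rho between distance and share was -0.19 at 50 to 100 nt, 0.07 at 100 to 150 nt and -0.10 at 150 to 200 nt. A nearer start leaves fewer bases before it. The mean profile of ORFs with free space downstream, described further on, was read at the same distances. The share past them was a median of 92.4% below 100 nt, 59.1% at 100 to 150 nt and 35.7% at 150 to 200 nt. The median of these ORFs' own shares, the closer match to the class medians above, was 99.76%, 74.20% and 10.97%. The part of the fewer bases in the trend was not tested. Counted from 20 nt past the start, the median was 0.854% in place of 2.19% over the 118 pairs, 71.2% in place of 97.6% below 100 nt, 4.70% in place of 15.2% at 100 to 150 nt and 0.297% in place of 0.871% at 150 to 200 nt, and 24 pairs in place of 35 had more than 10% in both replicates.

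**Figure D1:**
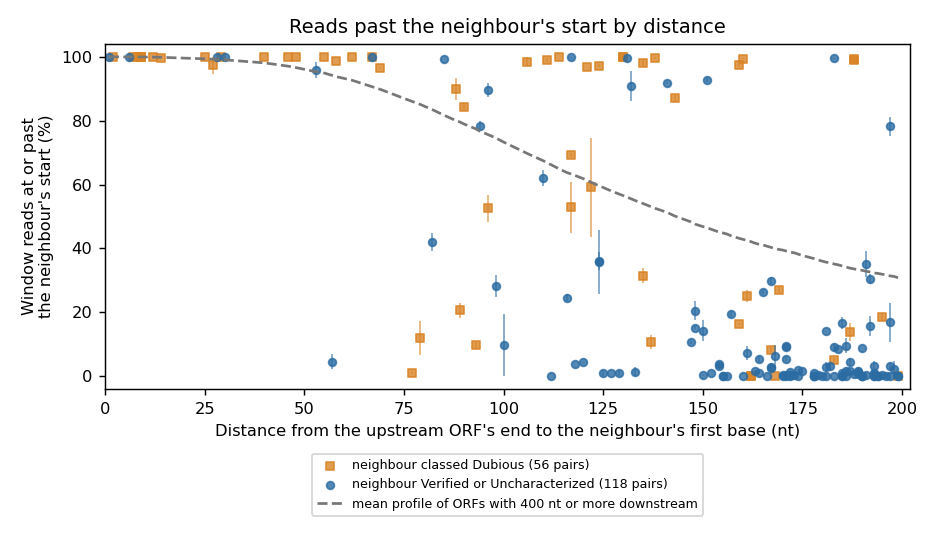
Share of window reads at or past the neighbour's start (percent) against the distance between the ORFs (nt) for the 174 pairs 1 to 200 nt apart; points are means of 2 replicates, vertical lines join the replicates, and the dashed line is the share at the same distance in the mean profile of 1224 ORFs with at least 400 nt downstream. Separate pairs (118, circles) drop from 100% at the shortest distances to a median of 0.871% at 150 to 200 nt and lie mostly under the dashed line, while pairs with a Dubious neighbour (56, squares) have a median of 97.2% at 100 to 150 nt and 16.3% at 150 to 200 nt. The dashed line is a mean, and at 150 to 200 nt the median of the 1224 ORFs' own shares was lower, 10.97% against 35.7%.

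HYP2, which encodes translation factor eIF5A, combined one of the shortest spacings with a high read count. The ORF lies on chromosome V from 85676 to 86149 (assembly R64), 30 nt before MTC7, an Uncharacterized ORF. Coordinates of this assembly equalled the deposited ones for all 226 upstream ORFs and for 122 of the 123 neighbours that were not Dubious. All 24020 window reads of replicate 1 and all 21051 of replicate 2 lay inside MTC7. Position 218 after the HYP2 stop codon took 79.5% and 78.0% of them. The window after MTC7 itself held only 19 and 5 reads, so nearly all 3' ends on this stretch fell within the annotated MTC7 ORF.

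TRM9, a tRNA methyltransferase gene on chromosome XIII from 243225 to 244064, lies 85 nt before UBX2, whose product recruits Cdc48 in endoplasmic reticulum-associated protein degradation. Of its 21888 and 24617 window reads, 99.4% and 99.3% were past the UBX2 start. They stood at its very edge, since position 96 alone took 84.6% and 84.5%, and the first 20 nt of UBX2 held 97.9% and 98.0% of the window. UBX2's own window held 3378 and 2628 reads, fewer than the reads at its 5' edge in both replicates. Counted from 20 nt past the start, the TRM9 share was 1.39% as a mean of both replicates.

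The remaining separate pairs below 100 nt were mixed. PSP1, a gene for an Asn- and Gln-rich protein, ends 1 nt before SPG3, a gene needed for survival at high temperature in stationary phase. At this distance all of its 221 and 216 reads were past that start by construction. HOF1, a cytokinesis gene 6 nt before YMR030W-A, had all of its 351 and 295 reads past the start. RCR2, for a vacuolar protein, differed from these in where its reads ended. YDR003W-A begins 28 nt after RCR2 and is 123 nt long, and all 3361 reads of replicate 1 and 2855 of the 2878 reads of replicate 2 lay beyond the end of YDR003W-A, led by position 303. BIO4, the dethiobiotin synthetase gene, lies 53 nt before BIO5, whose product takes up a biotin precursor, and its 292 and 385 reads were 98.3% and 93.2% past the start. SHE4, a gene for a myosin chaperone 67 nt before YOR034C-A, had 8851 of 8872 and 8414 of 8418 reads past the start, of which 2320 and 2327 were beyond the neighbour's stop codon.

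SPT23, which encodes a membrane-bound transcription factor, and MAK11, a gene for biogenesis of the large ribosomal subunit, lie in a row on chromosome XI and form a run of tightly spaced genes that ends in CDC16, a subunit of the anaphase-promoting complex. MAK11 starts 82 nt after SPT23, and 39.2% (95% Wilson interval 35.9 to 42.6) and 44.96% (41.2 to 48.7) of the SPT23 window reads lay past that start. The SPT23 reads led at position 66, before the MAK11 start, with a further position at 90 just past it. MAK11 in turn lies 96 nt before CDC16, and 91.7% and 87.3% of its 278 and 316 window reads lay inside CDC16. In MAK11, 70.5% and 62.3% of the window reads fell in the first 20 nt of CDC16, and in SPT23 24.7% and 28.6% fell in the first 20 nt of MAK11. CDC1, a gene for a putative lipid phosphatase of the endoplasmic reticulum 94 nt before YDR182W-A, also spread its reads across the start, with 76.7% and 79.9% of 2544 and 2508 reads past it.

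YAP1802, a clathrin assembly gene 98 nt before YGR240C-A, had 31.8% and 24.8% of 689 and 1450 reads past the start, with position 72 leading. YOR302W was the only separate pair below 100 nt that stayed under 10%. This short ORF lies 57 nt before CPA1 and is the upstream ORF in the leader of the CPA1 mRNA, and 6.82% and 2.21% of its 132 and 181 reads lay past the CPA1 start. The CPA1 window itself held 56776 and 45373 reads.

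**Figure D2:**
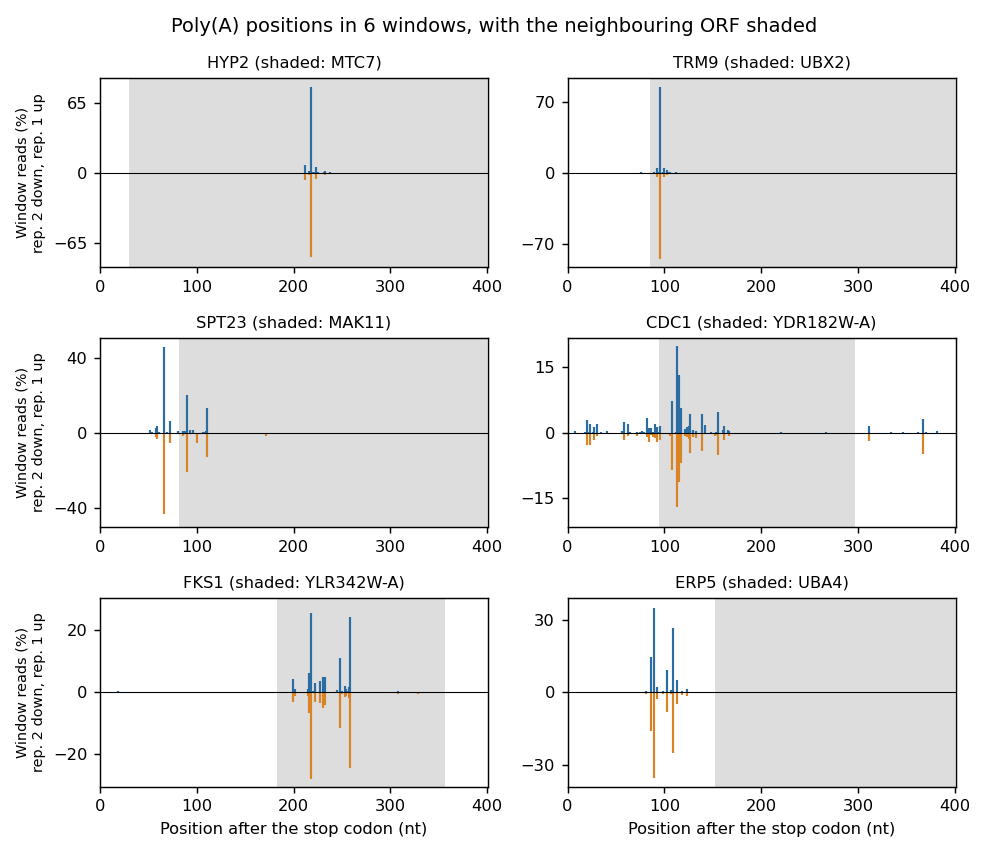
Share of window reads (percent) at each position after the stop codon (nt) for 6 separate pairs, with replicate 1 upward, replicate 2 downward, and the neighbouring ORF shaded. HYP2 has its main position well inside MTC7, TRM9 has 84.6% and 84.5% of its reads 11 nt past the UBX2 start position, SPT23 and CDC1 straddle the start, FKS1 has almost all reads past it and ERP5 almost none.

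At 100 to 150 nt the pairs ran from no read past the start to nearly all. CTR2, a vacuolar copper transporter gene, lies 117 nt before YHR175W-A, and 99.7% and 100% of its 1046 and 1303 reads were past that start. In YNL046W, 141 nt before the aminopeptidase gene LAP2, the share was 92.0% and 91.3%, led by position 154. SLD7, a replication gene, had 95.7% and 86.3% past the start of YOR059C. YJR120W, whose neighbour ATP2 encodes the beta subunit of the F1 ATP synthase, had 99.5% and 100% of 184 and 183 reads inside ATP2. These 4 pairs were the only separate pairs of this class with their leading position past the start in both replicates.

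CTS1, the endochitinase gene that acts in cell separation, divided its reads between both sides of the YLR285C-A start, 110 nt away. The leading position 44 took 30.8% and 26.8% and position 171 took 19.4% and 21.4%, so that 59.4% and 64.6% of 13126 and 15839 reads were past the start. SOD2, for the mitochondrial superoxide dismutase, was similar on a smaller scale, with 38.9% and 33.2% of 586 and 452 reads past the YHR007C-A start. In STN1, a telomere capping gene 148 nt before RRP8, the leading position 145 stood just before the start and 23.5% and 17.6% of the reads were past it.

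Other genes of the same spacing ended before the neighbour. DYN2, the dynein light chain gene on chromosome IV from 1319387 to 1319841, lies 112 nt before the transcription factor gene CAD1 and had none of its 10423 and 9344 reads past that start, which allows a share of up to 0.0288% and 0.0321%. Its leading positions were 43 and 49, and its mean endpoint was 45.4 ± 0.201 nt (SD, n = 2). RPS10B, a ribosomal protein gene 127 nt before YMR230W-A, had 0.971% and 1.03% of 34197 and 37285 reads past the start. RTF1, AVO2 and MRS1 had no read past the start in replicate 2 and 2.80%, 2.03% and 1.84% in replicate 1. CTR2 at 117 nt and DYN2 at 112 nt thus differed by nearly the full scale at almost the same spacing, far beyond the spread between replicates of either.

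At 150 to 200 nt, 13 of 87 separate pairs had more than 10% of their reads past the start in both replicates and 3 had their leading position there. With the count begun 20 nt past the start, 6 of the 87 had more than 10% in both replicates. FKS1, the gene for the catalytic subunit of glucan synthase on chromosome XII from 809997 to 815627, lies 183 nt before YLR342W-A. Of its 14351 and 16498 reads, 99.4% and 99.6% were past the start, at positions 218 and 258 above all. ALF1, an alpha-tubulin folding gene 151 nt before PGA2, had 93.3% and 92.0% of 697 and 440 reads past the start. YEA4, a nucleotide sugar transporter gene 197 nt before the prefoldin subunit gene GIM4, had 81.1% and 75.3% of 1061 and 817 reads past the start, led by position 274.

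The other 10 of these 13 pairs had between 10.8% and 39.2% past the start in either replicate. SPT3, a subunit gene of the SAGA coactivator complex, had 32.1% and 29.0% of 7978 and 7821 reads past the start of SHE9, 192 nt away, with position 130 leading and position 197, just inside SHE9, at 22.3% and 21.4%. The first 20 nt of SHE9 held 31.3% and 28.3% of the SPT3 window reads. The shares past the start were 39.2% and 31.2% in SLU7, a splicing factor gene before RRP1, and 25.7% and 26.8% in DUG1, a dipeptidase gene before IRC6. YPL108W, NRK1, CUE2, YEN1, YJR141W, SYN8 and CWC21 make up the rest.

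Most genes of this class stayed short of the start. ERP5, a p24 family gene on chromosome VIII from 332282 to 332920, had the most reads of all separate pairs, 35733 and 41843, of which 0.826% and 0.949% lay past the start of UBA4, 152 nt away. YJL055W, 171 nt before the mitochondrial import gene TIM54, had none of 15586 and 17401 reads past the start, and TIM54, 197 nt before PEP8, had none of 3018 and 2309. RRP40, an exosome subunit gene 172 nt before PPM2, had 0 of 10048 and 1 of 7847. CDC31, for centrin, had 5 reads of 8150 and 5 of 7048, and EMC1, an endoplasmic reticulum complex gene, had 0 of 5012 and 5611. MET1, a siroheme synthesis gene, had no read past the start among 1873 and 2065 and the shortest mean endpoint of the upstream genes with a standard name, 37.8 ± 0.370 nt (SD, n = 2).

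Seen from the neighbour's start, the 3' ends of each distance class stood at different places. In pairs 150 to 200 nt apart, the 25 nt bin from 125 to 101 nt before the start held the largest mean share, 25.4% of a pair's reads, and the bin of the first 25 nt past the start held 2.64%. In pairs 100 to 150 nt apart the largest bin was 50 to 26 nt before the start, with 25.3%. In the 12 pairs below 100 nt it was the first 25 nt past the start, with 22.3%, a mean over unlike pairs. The first 20 nt past the start held 97.9% and 98.0% in TRM9 and 70.5% and 62.3% in MAK11. They held 0.112% and 0.0190% in HYP2 and 0% in both replicates in RCR2. Where reads did pass the start, the median read lay 37 and 33 nt past it over the separate pairs.

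**Figure D3:**
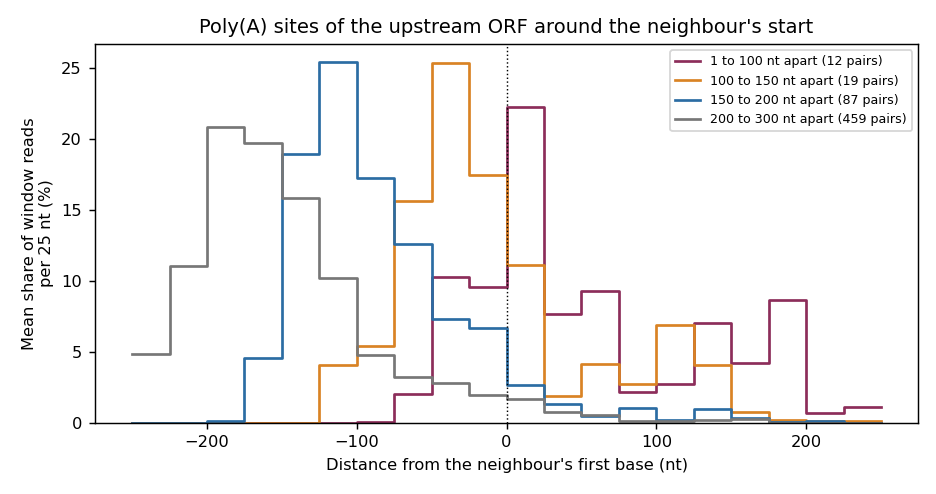
Mean share of window reads (percent, each pair weighted equally, mean of 2 replicates) in bins of 25 nt around the neighbour's first base, with negative values before the start, for separate pairs in 3 distance classes and for tandem pairs 200 to 300 nt apart with a neighbour that was not Dubious. The tallest bin lies 125 to 101 nt before the start at 150 to 200 nt and just past the start below 100 nt. Below 100 nt the mean covers unlike pairs, with TRM9 and MAK11 high in that bin and HYP2 and RCR2 near its floor.

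The median separate pair ended closer to its own stop codon than the median of 3 pooled classes of other ORFs, with an order that varied by distance. The mean endpoint, the read-weighted mean position in the window, had a median of 86.2 nt in replicate 1 and 86.1 nt in replicate 2 over the 118 separate pairs. It was 105.8 nt over 895 tandem pairs 200 to 400 nt apart with a neighbour that was not Dubious, 112.6 nt over 1277 convergent pairs under 200 nt apart and 146.6 nt over 1224 ORFs with at least 400 nt downstream. The separate pairs stood 19.6 nt below the wider tandem pairs (SD of the difference between replicates 0.0252 nt), 26.4 nt below the convergent pairs and 60.5 nt below the ORFs with free space downstream (SD 1.61 nt). Within the separate pairs, the 87 pairs 150 to 200 nt apart were shortest, with a median of 76.6 nt, against 99.2 nt at 100 to 150 nt and 115.9 nt over the 12 pairs below 100 nt. The 459 tandem pairs 200 to 300 nt apart had a median of 95.9 nt, below both of the latter classes, and the 436 pairs 300 to 400 nt apart had 120.0 nt. Over all 226 pairs, the overlapping and Dubious ones included, the median was 115.9 nt, 8.93 nt above the 917 tandem pairs 200 to 400 nt apart, so the direction of that comparison rests on which pairs are counted. These are differences of medians in 1 strain with n = 2 libraries, which give the spread between replicates but no test between genes.

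**Figure D4:**
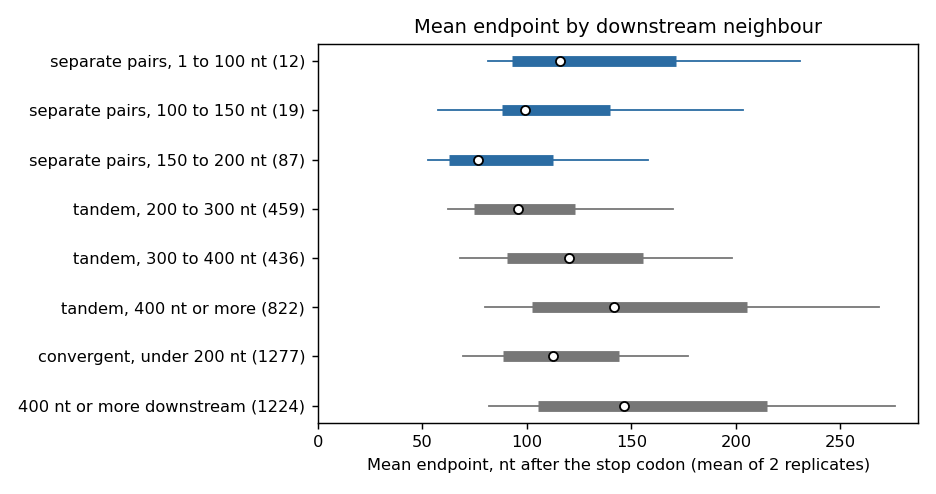
Mean endpoint (nt after the stop codon, mean of 2 replicates) by type of downstream neighbour, with the number of ORFs in brackets; dots are medians, thick bars the middle 50% of ORFs and thin lines the 10th to 90th percentile, and tandem classes at 1 to 400 nt hold neighbours that were not Dubious. The 87 separate pairs 150 to 200 nt apart have the lowest median, 76.6 nt, and ORFs with at least 400 nt downstream the highest, 146.6 nt.

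The profile of the 1224 ORFs with at least 400 nt downstream was also read at each pair's own distance. At those distances the mean profile placed a median of 39.0% of reads past the point where the neighbour begins, against 2.19% measured over the separate pairs. The measured share was below this reference in both replicates in 101 of 118 pairs and above it in 14. Over all 1013 used ORFs with a tandem neighbour that was not Dubious 1 to 400 nt away, 93.5% lay below it, so the count is no mark of the closest pairs. At the distances of the separate pairs, the median of the 1224 ORFs' own shares was 15.9%, and a median of 56.9% of these ORFs lay below their own mean in both replicates. At 150 to 200 nt, 83 of 87 pairs lay below the reference, whose median there was 35.7%. At the distances of these 87 pairs, a median of 60.05% of the 1224 ORFs lay below their own mean in both replicates. The median of those ORFs' own shares was 10.97% there.

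Reads of the separate pairs also used slightly fewer positions. The effective number of positions is the number of equally used positions that would give the same evenness. Its median was 7.21 over the separate pairs, 7.96 over the 895 tandem pairs 200 to 400 nt apart with a neighbour that was not Dubious, and 8.78 over the ORFs with at least 400 nt downstream. With medians taken within replicates 1 and 2, the separate pairs differed by -0.433 and -0.280 from the wider tandem pairs. From the ORFs with at least 400 nt downstream they differed by -1.29 and -1.10. Median window reads were 1108, 1570.5 and 1630.5 in these 3 classes, and the part of read depth in the differences was not tested.

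A few genes held most reads past a start. Over the separate pairs 24.4% and 25.4% of all window reads were past the neighbour's start, but HYP2, TRM9, FKS1, SHE4 and CTS1 held 76.2% and 77.8% of those reads. Without these 5 genes the share was 7.27% and 7.16%.

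On the neighbour's side, upstream windows held a varying part of the poly(A) reads found inside the neighbour's coding sequence. In 92 separate pairs the window ended before the neighbour's stop codon and the neighbour had reads inside its ORF in both replicates. The upstream window's part of them was a median of 67.1% and 55.0%, more than 90% in both replicates in 25 pairs and less than 10% in both in 17. Among 865 used ORFs with a tandem neighbour that was not Dubious 1 to 400 nt away and that met the same conditions, 7.40% were above 90% and 56.3% below 10%. The 865 include the 92. No higher minimum was set on the reads inside the neighbour, so some of these parts rest on very few reads. COG7, after RPN14, had 1 read inside its ORF in each replicate, which lay in the RPN14 window. MSF1, after MCM16, had 2 and 3 reads inside its ORF, with 0 in the MCM16 window. The window covers more of a nearer neighbour, a median of 22.9% of its ORF in the 92 pairs and 8.19% in the 865, and the part of this in the counts was not tested. UBX2 had 21753 and 24463 reads inside its ORF, of which 21746 and 24455 lay in the TRM9 window. For LAP2, 1871 of 1881 and 1840 of 1853 reads inside the ORF lay in the YNL046W window.

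In 20 of the 118 separate pairs (16.9%), the upstream window's reads inside the neighbour outnumbered the reads in the neighbour's own window in both replicates. The background, with the 118 included, was 3.46% of the 1013 used ORFs with such a neighbour 1 to 400 nt away. The neighbour was Uncharacterized in 11 of the 20 pairs, among them FKS1 (14256 and 16418 reads inside YLR342W-A, 65 and 116 after it), CTS1, SHE4, CTR2 and RPS10B. Verified neighbours were among them too. SHE9, a gene for mitochondrial morphology, had 2560 and 2265 reads of the SPT3 window inside it and 606 and 474 in its own window. Most of the SPT3 window's reads inside SHE9 lay in its first 20 nt. CDC16 had 255 and 276 reads of the MAK11 window inside it and 122 and 135 in its own. BIO5 had 287 and 359 inside and 38 and 12 after it, and IRC6 had 744 and 682 inside and 142 and 174 after it. BNA1, a NAD synthesis gene, placed 359 and 211 reads inside the methionine salvage gene MDE1, 2.13% and 1.96% of its own window, and MDE1's window held 225 and 108.

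**Figure D5:**
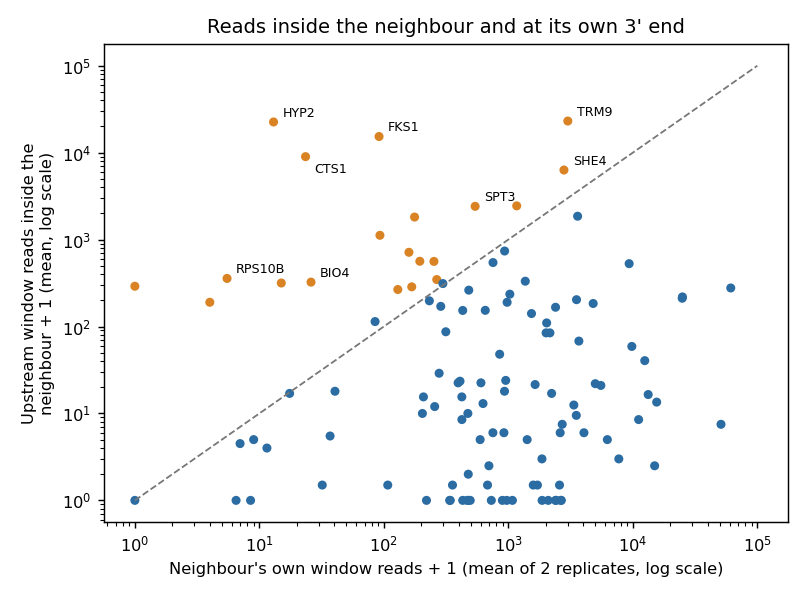
Reads of the upstream window that lie inside the neighbour's ORF against reads in the neighbour's own window, both plus 1 and as means of 2 replicates on log scales, for the 118 separate pairs; the dashed line marks equality and orange points are the 20 pairs with more reads inside in both replicates. HYP2 lies farthest above the line, with 24020 and 21051 reads inside MTC7 and 19 and 5 reads after it.

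The median share past the start was higher with a Dubious neighbour than in separate pairs at 100 nt or more. Among separate pairs, 23 of 92 with a Verified neighbour and 12 of 26 with an Uncharacterized one had more than 10% past the start in both replicates, but 6 of the 92 and 6 of the 26 lay below 100 nt. At 150 to 200 nt the counts were 11 of 73 and 2 of 14, with median shares of 1.37% and 0.192%. Of the 56 pairs with a Dubious neighbour 1 to 200 nt away, 46 did, and their median share was 97.3%. At 100 to 150 nt the median was 97.2% over 15 Dubious pairs and 15.2% over 19 separate pairs, and at 150 to 200 nt it was 16.3% over 15 and 0.871% over 87. In that last class 11 of the 15 Dubious pairs lay below the mean profile of ORFs with free space downstream in both replicates. At the distances of the 87 separate pairs of this class, a median of 60.05% of those ORFs also lay below their own mean. Whether the 15 Dubious pairs differ from this was not tested.

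Among the Dubious pairs, SES1, the seryl-tRNA synthetase gene, had 96.8% and 96.9% of 24367 and 20673 reads inside FYV1 or past it, 121 nt away, and 40.9% (mean of both replicates) when counted from 20 nt past the start. The respiratory genes COX4 and QCR9 had 99.2% and 98.5%, and 96.7% and 98.0%, past the start, and SPT15, which encodes the TATA-binding protein, had 99.5% and 99.2%. ERC1, a transporter gene, had the longest mean endpoint of the 226 upstream genes, 389.9 ± 8.68 nt (SD, n = 2), with its leading position 397 close to the end of the window. CCT2, a chaperonin gene, and RPL13B, a ribosomal protein gene, stood at the other end, with 0.0429% and 0.0678% of 48998 and 41268 reads, and 0.0368% and 0.0827% of 46135 and 44765 reads, past the start.

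In the 52 overlapping pairs the share says nothing, and only positions carry information. CPR1, the cyclophilin gene, had the most window reads of all 226 pairs, 175506 and 121943, led by position 107 with 45.5% and 44.4%. NAB6, for a putative RNA-binding protein, followed with 71252 and 75854 reads, led by position 169 with 62.0% and 61.1%. ALG3, DRS2, AST1, DDR48, TKL2, OSH3, GPH1 and GCN20 are further overlapping pairs, with mean endpoints between 89.7 nt (AST1) and 157.9 nt (OSH3).

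Functional groups had few members among the 226 pairs, counted by the upstream gene's name. The largest, of genes for transcription proteins, had 6 members: 3 separate pairs, SPT23, SPT3 and MED6, of which MED6 had 2.70% and 4.78% past the CPR2 start, and SPT15, SPT5 and RPA14 with Dubious neighbours. The 3 cytosolic ribosomal protein genes were RPL21A, RPL13B and RPS10B, the last the only one in a separate pair. Ribosome biogenesis gave UTP21 (4.92% and 9.39%) and RRP40 as separate pairs and NOP58 as an overlapping one. No mitochondrial ribosomal protein gene and no gene with a name of the ERG series was among them.

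Besides SPT23 and MAK11, 3 runs joined a pair of members in a row. YJL055W and TIM54 had no read past either start. DUS1 and YML079W, which end in CPR3, had under 1% past either start in both replicates. BNA1 and MDE1 end in YJR023C, a Dubious ORF 25 nt after MDE1, which took all 225 and 108 reads of the MDE1 window.

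The replicates gave the same side of the 10% mark in 220 of the 226 pairs and 115 of the 118 separate pairs, and the share differed by more than 10 percentage points in 3 separate pairs. The 52 overlapping pairs and PSP1 could not differ, since their share is 100% by construction. NFT1, a putative transporter gene 100 nt before YKR104W, an ORF joined to it in some other strains per the annotation in the tables, was one of the 3 separate pairs, with 0 of 106 reads past the start in replicate 1, an upper limit of 2.83%, and 29 reads, or 19.5%, in replicate 2. YBR196C-A, 124 nt before the phosphoglucose isomerase gene PGI1, had 45.7% and 25.8% of 105 and 120 reads past the start. YEN1, a Holliday junction resolvase gene, had 10.8% and 23.0% of 344 and 343 reads past the start of MXR1. JNM1 and GLT1, both with a Dubious neighbour, had 43.7% and 74.6%, and 44.8% and 60.9%. JNM1, GLT1 and NFT1 had fewer than 300 reads in each library.

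At the edge of the rule, HCA4 and STR2 lay 1 nt inside the limit and had 0.195% and 0.0243%, and 0.0844% and 0%, of their reads past the start. VPS15 and CYM1 at 200 nt, just outside, had 2.67% and 3.08%, and 2.37% and 4.19%, past the start. SPO73 (287 and 104 reads) and MOH1 (122 and 106) were the members with a standard name nearest to the read minimum.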

How the data were processed

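The 3' READS libraries of 2 biological replicates came as 1 table each, plus a table of both pooled. The submitters' processing notes list Bowtie, without a version, and neither a genome build nor the treatment of reads with several matches is stated in the labels or headers. Per the file headers, the deposited signal values are reads inside each feature and in the window 1 to 400 nt after it, and each position has a deposited percent of the reads at a gene's most used position. The signal values were multiples of 0.858 in replicate 1 and 0.940 in replicate 2, and division by this step gave reads. The minimum of 100 was applied after this division. Positions in genes with no more than 2000 reads at the top were within 0.1 of a whole read in 99.998% and 99.995% of cases. With 1 group, no count test applied.

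Reads at or past the neighbour's first base were summed per pair and replicate from the annotated distance. Wilson 95% intervals go with shares, and 3 counts set the limit for a share of 0. The SD is over 2 replicates. The reference profile is the mean of 1224 ORFs with at least 400 nt downstream, each weighted equally. Members, gene groups and the rule for names were chosen with earlier results of these data known. The rule takes genes with a standard name at the extremes of share, reads, distance, mean endpoint and replicate difference, at the edges of the selection, in runs and in name groups. Other genes were named after their values were seen. The count behind the share was run on simulated reads over 1091 tandem pairs, where set shares of 5, 20, 50 and 80% gave medians of 4.95, 20.3, 50.2 and 80.0%, over 50 pairs each. The simulated reads were drawn and counted around the same annotated start. This checks the arithmetic only, not the annotation or which gene a read came from. Sequences around the poly(A) sites were not analysed here. Python 3.11.15, numpy 2.4.6 and pandas 2.3.3 were used.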

Additional observations from a re-analysis of the deposited data

How the results depend on the processing

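No paired analysis was possible because the samples form 1 group. Of 477 values recomputed under other settings, 373 moved by less than the spread between replicates or, for counts, stayed within 1.5 times, 101 moved further and 3 changed sign. The cause was not tested unless the setting's own construction gives it. The sign change concerns the median mean endpoint of all 226 pairs minus that of tandem pairs 200 to 400 nt apart, 8.93 nt as reported, which became -16.1 nt without Dubious neighbours, -7.21 nt without overlapping pairs and -12.4 nt without windows that reach past the neighbour's stop codon.

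Results for all 226 pairs moved with their makeup, from a median share past the start of 31.0%, a share of all reads of 57.7%, 133 pairs over 10%, 106 leading positions past the start, a median endpoint of 115.9 nt, 30.7 nt below (-30.7) ORFs with at least 400 nt downstream, and 8.10 effective positions. Without Dubious neighbours, a setting chosen after seeing the data, these became 2.88%, 26.6%, 40, 21, 89.7 nt, -56.9 nt and 7.22, and the median shares at 50 to 100, 100 to 150 and 150 to 200 nt went from 86.9%, 56.0% and 1.40% to 83.9%, 15.2% and 0.871%. Without overlapping pairs they were 9.29%, 31.8%, 81, 54, 99.8 nt, -46.9 nt and 7.21. Without windows past the neighbour's stop codon they were 5.92%, 26.5%, 64, 40, 94.6 nt, -52.0 nt and 7.10, and for separate pairs the share became 1.61%, the leading positions 9, the endpoint 81.5 nt and its difference from ORFs with at least 400 nt downstream -65.2 nt. Leaving out only reads past the stop codon gave 18.5% and 42.6%.

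Counting from 20 nt past the start gave 12.4% and 52.5% for all pairs, 100% (99.95), 31.8%, 15.6% and 0.359% in the classes from 1 to 200 nt, and 0.854% for separate pairs. Below 100 nt there were 90 pairs, with a median share of 100%, 86 over 10% and an endpoint of 140.7 nt, and among separate pairs a share of 97.6%, 11 over 10%, 9 leading positions, an endpoint of 115.9 nt and a difference of -30.7 nt. With a minimum of 500 reads the values for all pairs were 27.0%, 113.8 nt, -27.3 nt, 8.46 positions, and 89.9% and 0.871% at 50 to 100 and 150 to 200 nt, and for separate pairs 1.44%, 22, 9 and 82.1 nt. With a minimum of 1 read they were 48.1%, 119.9 nt, 11.5 nt above the wider tandem pairs, 7.02 positions, 81.3% and 1.61%, and for separate pairs 4.51%, 59, 31, 94.5 nt and -56.5 nt. On the deposited values the endpoint was 119.0 nt, the differences 12.3 and -27.5 nt, and the share of separate pairs 1.66%. On positions 1 to 300 the values were 7.26 positions, 110.5 nt, -28.2 nt and 5.56 nt, and for separate pairs 85.7 and -53.1 nt. The pooled table gave 8.63 positions.

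With 1 replicate at a time, ranges were 7.83 to 7.995 positions, 115.5 to 116.8 nt, 8.91 to 10.6 nt, 84.8% to 86.4% at 50 to 100 nt, 1.01% to 1.24% at 150 to 200 nt, and 1.72% to 2.19% for separate pairs. Of 289 values of single genes, which are among the 477, 272 moved by no more than the replicate spread. These counts do not measure robustness. A share cannot change sign, and leaving out 1 replicate never moves a single gene's share beyond the replicate spread. Several of these genes overlap their neighbour, so their share is 100% by construction. Pairs near 100 reads are limited by depth, since a share of 0 there allows up to 2.83%.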
